A study of Mus musculus with 5 samples.

Results

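The 10 genes described here are 6 receptors and 4 transcriptional targets or effectors of canonical WNT signalling. The receptors are the Frizzled genes Fzd3, Fzd5, Fzd6 and Fzd7 and the co-receptor genes Lrp5 and Lrp6. The other 4 are Axin2, Nkd1, Lef1 and Tcf7l1. They were taken by gene name from the 49671 rows of a raw count table, and all 10 were among the 12067 genes with enough counts to be tested. The table holds 5 mouse embryos from a conditional deletion of Oct4, the transcription factor encoded by Pou5f1, at about E6.75, the onset of gastrulation. The 2 control embryos, called SO+, were Sox2Cre-/-; Oct4 fl/+ and so carried a floxed and an intact allele of Oct4 with no Cre transgene. The paper uses the name SO+ more widely, also for embryos functionally heterozygous for Oct4. The 3 mutant embryos, called SO−, were Sox2Cre+/-; Oct4 fl/- and so carried the transgene with a floxed and a null allele. All 5 inherited a floxed allele and had a mixed strain background. Each library came from a single embryo after removal of the extra-embryonic ectoderm (ExE), so it holds epiblast together with visceral endoderm (VE). The Sox2 promoter drives Cre mainly in the epiblast, and the VE of a mutant embryo therefore largely keeps its floxed allele.

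WNT ligands bind a Frizzled, a receptor that crosses the membrane several times, together with Lrp5 or Lrp6. The activated complex recruits Dishevelled and Axin, the complex that degrades β-catenin is held back, and β-catenin enters the nucleus, where it acts through the TCF/LEF factors that sit on WNT target genes. Axin2 and Nkd1 are direct targets in many tissues and both dampen the pathway that induces them. Lef1 encodes a TCF/LEF factor that mostly activates with β-catenin and is itself a target, whereas Tcf7l1 encodes Tcf3, the family member known mainly as a repressor in pluripotent cells. In the gastrulating mouse embryo, canonical WNT signalling is required to form the primitive streak in the posterior epiblast, and antagonists from the anterior VE restrict it on the opposite side.

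TCF/LEF factors bind DNA at sites built around the core CTTTG, and the start-site sequences of 6 of the 10 genes (Fzd5, Fzd7, Axin2, Nkd1, Lef1 and Tcf7l1) were matched in RefSeq, GRCm38.p6, in 9 windows of 300 bases. Of these windows, 6 held the core on either strand, but 4 of the 6 were start sites of Lef1, some overlapping, beside 1 each of Fzd7 and Tcf7l1. Among all 32851 RefSeq windows of that size, 53.9% held it. The longer form CTTTGTT, which contains the core, was in the Fzd7 window and in 5.85% of all windows. CTTTGAT, which also contains the core, was in 3.73% of all windows, and the octamer ATGCAAAT bound by Oct4 was in 1.74%, and neither was in any of the 9. A match of these letters is a description of the window and does not show binding. The 250 bases before a start site are shown for a target without the core, a target with it and the most abundant of the 4 Frizzleds, 5′ to 3′ on the plus strand in GRCm38, with the core in either orientation in capitals. They lie at chr11:108920099-108920348 for Axin2, chr3:131110047-131110296 for Lef1 and chr1:59481897-59482146 for Fzd7.
Axin2: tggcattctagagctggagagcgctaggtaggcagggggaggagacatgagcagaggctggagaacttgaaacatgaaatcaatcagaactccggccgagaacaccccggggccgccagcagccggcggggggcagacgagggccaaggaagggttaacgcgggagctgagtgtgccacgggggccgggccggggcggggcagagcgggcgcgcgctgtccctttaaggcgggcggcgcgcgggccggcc
Lef1: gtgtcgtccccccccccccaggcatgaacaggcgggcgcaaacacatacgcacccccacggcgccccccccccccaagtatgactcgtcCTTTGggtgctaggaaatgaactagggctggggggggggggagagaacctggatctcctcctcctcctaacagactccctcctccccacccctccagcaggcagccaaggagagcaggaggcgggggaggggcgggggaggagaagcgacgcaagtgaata
Fzd7: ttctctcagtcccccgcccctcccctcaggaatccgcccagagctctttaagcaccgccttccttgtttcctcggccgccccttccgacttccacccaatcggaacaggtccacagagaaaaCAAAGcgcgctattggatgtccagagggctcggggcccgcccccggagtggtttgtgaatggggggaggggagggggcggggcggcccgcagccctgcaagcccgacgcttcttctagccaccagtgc

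Sequencing depth differed with genotype. The SO+ libraries held 27538119 and 27047148 counts in genes, and the SO− libraries 4134617, 1117566 and 4191498, so that the mean depth of the controls was 8.67 times that of the mutants. Levels are given as CPM, counts scaled to a library of 1000000, on which 3 counts amount to 0.109 and 0.111 for the controls and to 0.731, 2.68 and 0.723 for the mutants. The second index read also separated the genotypes, and its part cannot be told apart from theirs. Pou5f1, the deleted gene, stood at 919.5 and 437 CPM in SO+ and was lower in each mutant, at 28.0, 12.5 and 44.1 CPM. Summed over 14 VE markers the level was 3652.5 and 4096.5 CPM in SO+ against 5688, 5628 and 3683.5 CPM in SO−. Of the 14, 13 had a positive log2 difference, of which Sox17 and Spink1 passed the test. Over all 12067 tested genes, 2.35% passed the test and 5997 had a positive log2 difference. Sox17 is also a gene of definitive endoderm, so its level need not reflect the VE alone. Summed over 7 epiblast markers the level was 6130 and 4994 CPM in SO+ against 2646, 2298 and 3445 CPM in SO−. Pou5f1, the deleted gene, Utf1 and Dnmt3b were lower past the test. Of the 7, 5 had a negative log2 difference, with Cdh1 at −0.09, and 2 a positive one, Fgf5 at 0.38 and Sox2 at 0.56. Dnmt3b made up most of each sum, at 3980 and 3276 CPM in SO+ and 1720, 1443 and 2310 CPM in SO−. The 8 markers of the primitive streak and nascent mesoderm summed to 621 and 884 CPM in SO+ and to 884, 1017 and 790 CPM in SO−. Only Fgf8 passed the test, at 138 and 124 CPM in SO+ and 308, 332 and 298 CPM in SO−. Of the 8, 5 had a positive log2 difference and 3 a negative one, Mixl1 at −0.44, Mesp1 at −0.61 and Snai1 at −0.04. The 6 markers of the anterior VE summed to 347 and 437 CPM in SO+ and to 393, 455 and 424 CPM in SO−. None passed the test, and 5 of the 6 had a positive log2 difference, with a median of 0.52. Otx2, the most abundant of them and also an epiblast gene, had a negative one of −0.23. It was lower in every mutant than in either control, as were 15.1% of all tested genes. Hhex and Hesx1 were higher in every mutant, as were 14.2%. In SO− embryo 2, Hesx1 rests on 4 counts, at 3.57 CPM against 3.23 and 3.41 CPM in SO+. The 8 ExE markers summed to between 15.6 and 19.6 CPM in every embryo, and of 9 markers of maternal decidua and blood 6 had no count in any embryo.

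None of the 10 genes differed between SO− and SO+ embryos at an adjusted p of 0.05 by edgeR's quasi-likelihood test, with Benjamini-Hochberg adjustment over all genes tested, against 2.35% of the genes tested, that is 283, that did. DESeq2 and limma-voom, which called 2.52% and 0.754% of their tested genes, also called none of the 10. At an unadjusted p under 0.05 the edgeR test picked 3 of the 10, Fzd6, Fzd7 and Lrp5, where 13.7% of all tested genes were picked. The same 3 genes had no overlap between the genotypes. Fzd6 and Lrp5 were higher in every SO− embryo than in either SO+ embryo, as were 14.2% of all tested genes, and Fzd7 was lower in every SO− embryo, as were 15.1%. In these whole epiblast and VE samples, fewer cells of a type and less RNA per cell cannot be told apart.

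**Figure D1:**
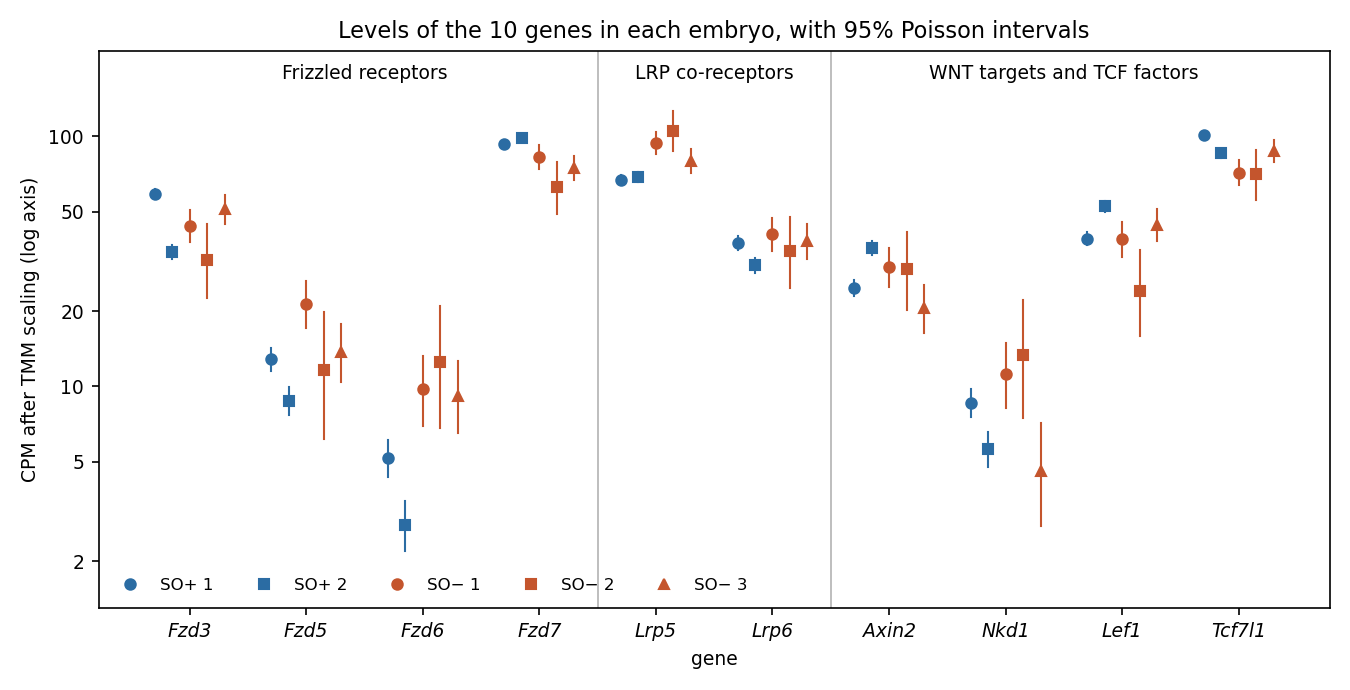
Level of each of the 10 genes in each embryo, in CPM after TMM scaling on a log axis, with SO+ and SO− embryos as separate point styles and vertical lines giving 95% exact Poisson intervals for counting error. The SO− points of Fzd6 and Lrp5 lie above both SO+ points, those of Fzd7 lie below, and the points of the other 7 genes overlap.

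Of the 4 Frizzled genes, Fzd6 had the largest fitted difference and the lowest mean level. Its product is best known for the planar polarity branch of WNT signalling and for restraining the canonical one. Fzd6 (ENSMUSG00000022297; chromosome 15, 39006034 to 39038188, plus strand) had 142 and 75 counts in SO+ and 40, 14 and 38 in SO−, which is 5.15 and 2.78 CPM against 9.74, 12.5 and 9.16 CPM. All 3 mutant embryos were above both controls. The mean was 3.97 ± 1.68 CPM in SO+ (SD, n = 2) and 10.5 ± 1.78 CPM in SO− (SD, n = 3), a fitted 2.57-fold difference with a 95% interval from 1.33 to 4.96. On the log2 scale this is 1.36 (SE 0.44, edgeR adjusted p = 0.158), and the adjusted p was 0.147 by DESeq2 and 0.223 by limma-voom. The 14 counts of SO− embryo 2 have an exact Poisson interval from 6.83 to 21.0 CPM, so the position of that embryo above the other mutants is within counting error.

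Fzd7, a main Frizzled of the early embryo and of pluripotent cells, was the most abundant of the 4 and went the other way. Fzd7 (ENSMUSG00000041075; chromosome 1, 59482424 to 59486955, plus strand, a single exon) had 2569 and 2652 counts in SO+ and 340, 70 and 310 in SO−. These are 93.2 and 98.4 CPM against 82.8, 62.5 and 74.8 CPM, and every mutant embryo was below both controls. The fitted level in SO− was 0.778 times that in SO+ (95% interval 0.626 to 0.968), a log2 difference of −0.36 (SE 0.15, edgeR adjusted p = 0.271). The interval leaves out a loss of Fzd7 beyond 0.626 times the control level. Its sign was negative with each embryo left out, from −0.47 to −0.28.

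The remaining Frizzleds overlapped between the genotypes. Fzd3, which acts in planar polarity and axon guidance, lies on chromosome 14 (ENSMUSG00000007989; 65192449 to 65262463, minus strand). It stood at 58.7 and 34.4 CPM in SO+ and at 43.8, 32.1 and 51.1 CPM in SO−, so the controls alone spanned all but the lowest mutant. Its log2 difference was −0.09 (SE 0.24, 95% interval −0.61 to 0.43, edgeR adjusted p = 0.936), and it became 0.34 without SO+ embryo 1 and 0.03 without SO− embryo 2. Fzd5, a receptor of the canonical branch with known roles in the yolk sac and eye, lies on chromosome 1 (ENSMUSG00000045005; 64730558 to 64737751, minus strand). Its levels were 12.8 and 8.76 CPM in SO+ and 21.4, 11.6 and 13.7 CPM in SO−. Only SO− embryo 1 stood clearly above the controls, and the 13 counts of SO− embryo 2 have an interval from 6.18 to 19.8 CPM, which holds both SO+ values. The log2 difference of Fzd5 was 0.58 (SE 0.33, 95% interval −0.13 to 1.29, edgeR adjusted p = 0.487), and 0.25 without SO− embryo 1 and 0.88 without SO+ embryo 1, so neither no difference nor a difference of 2.45-fold lies outside the interval. The antisense gene Gm38058 covers 17.8% of the exon bases of Fzd5 and had at most 7 counts in an embryo.

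Both co-receptors had a positive log2 difference, and neither passed the test. Lrp5 (ENSMUSG00000024913; chromosome 19, 3584828 to 3686564, minus strand) had 1843 and 1849 counts in SO+ and 386, 118 and 330 in SO−, and its 66.9 and 68.6 CPM compare with 94.0, 105 and 79.6 CPM. The controls were nearly equal and all 3 mutant embryos lay above them. The fitted difference was 1.35-fold (95% interval 1.08 to 1.69), or 0.44 on the log2 scale (SE 0.15, edgeR adjusted p = 0.187), and leaving out each embryo gave 0.36 to 0.54. Lrp6, the co-receptor with the larger part in early mouse development, lies on chromosome 6 (ENSMUSG00000030201; 134446476 to 134566965, minus strand). It stood at 37.5 and 30.5 CPM in SO+ and at 40.7, 34.8 and 38.1 CPM in SO−, and the genotypes overlapped. Its log2 difference was 0.17 (SE 0.19, edgeR adjusted p = 0.787), with an interval from −0.24 to 0.58 that leaves out a difference beyond 1.49-fold upward. It was 0.03 without SO+ embryo 2 and 0.32 without SO+ embryo 1. The ratio of Lrp5 to Lrp6 per exon length was 2.50 and 3.16 in SO+ and 3.25, 4.25 and 2.93 in SO−, which overlap. The summed VE markers listed above were also higher in SO− embryos 1 and 2, the pair with the most Lrp5. In SO− embryo 3 that sum, 3683.5 CPM, lay between the controls, while Lrp5 and Fzd6 were above both. The part of the VE in the Lrp5 and Fzd6 values was not tested.

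The 4 target and effector genes overlapped between the genotypes, and none passed the test. Axin2, which encodes a scaffold of the β-catenin destruction complex, lies on chromosome 11 (ENSMUSG00000000142; 108920349 to 108950783, plus strand). Its counts were 682 and 961 in SO+ and 123, 33 and 85 in SO−, or 24.7 and 35.7 CPM against 30.0, 29.4 and 20.5 CPM. The controls differed from each other by more than the genotypes did. The log2 difference of Axin2 was −0.20 (SE 0.24, 95% interval −0.73 to 0.32, edgeR adjusted p = 0.805), and it was 0.08 without SO+ embryo 2 and −0.45 without SO+ embryo 1, and −0.35 and −0.03 without SO− embryos 1 and 3. Nkd1, which binds Dishevelled, lies on chromosome 8 (ENSMUSG00000031661; 88521354 to 88594884, plus strand). It had 8.56 and 5.60 CPM in SO+ and 11.2, 13.4 and 4.58 CPM in SO−, where the lowest and the highest embryo of the whole set are both mutants. Its log2 difference of 0.37 had the widest interval of the 4, from −0.62 to 1.37 (SE 0.46, edgeR adjusted p = 0.816). With single embryos left out it ran from 0.09 without SO+ embryo 2 to 0.76 without SO− embryo 3, and it was 0.70 without SO+ embryo 1 and 0.14 and 0.15 without SO− embryos 1 and 2. The 15 counts of SO− embryo 2 allow 7.49 to 22.1 CPM.

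Lef1 (ENSMUSG00000027985; chromosome 3, 131110471 to 131224356, plus strand) stood at 38.9 and 52.5 CPM in SO+ and at 38.7, 24.1 and 44.1 CPM in SO−. SO− embryo 2 was the lowest and SO+ embryo 2 the highest, with the other 3 close together. The log2 difference of Lef1 was −0.30 (SE 0.23, 95% interval −0.79 to 0.19, edgeR adjusted p = 0.650). It was −0.06 without SO+ embryo 2 and −0.14 without SO− embryo 2, and −0.50 and −0.47 without SO+ embryo 1 and SO− embryo 3. The antisense gene Gm43352 covers 13.7% of its exon bases and had 70 and 97 counts in SO+ and 8, 1 and 12 in SO−, against 1072, 1415, 159, 27 and 183 for Lef1. Whether counting used the strand is not given in the sources used here, so reads in the shared bases may not be separable. Tcf7l1 (ENSMUSG00000055799; chromosome 6, 72626378 to 72789254, minus strand) stood at 101 and 85.7 CPM in SO+ and at 71.6, 70.5 and 87.5 CPM in SO−. SO− embryo 3 was above SO+ embryo 2, and the other 2 mutants were below both controls. Its log2 difference was −0.27 (SE 0.15, 95% interval −0.60 to 0.05, edgeR adjusted p = 0.465), and −0.15 without SO+ embryo 1. The ratio of Tcf7l1 to Lef1 per exon length was 5.82 and 3.65 in SO+ and 4.14, 6.55 and 4.44 in SO−, so Tcf7l1 exceeded Lef1 in every embryo and the genotypes overlapped.

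**Figure D2:**
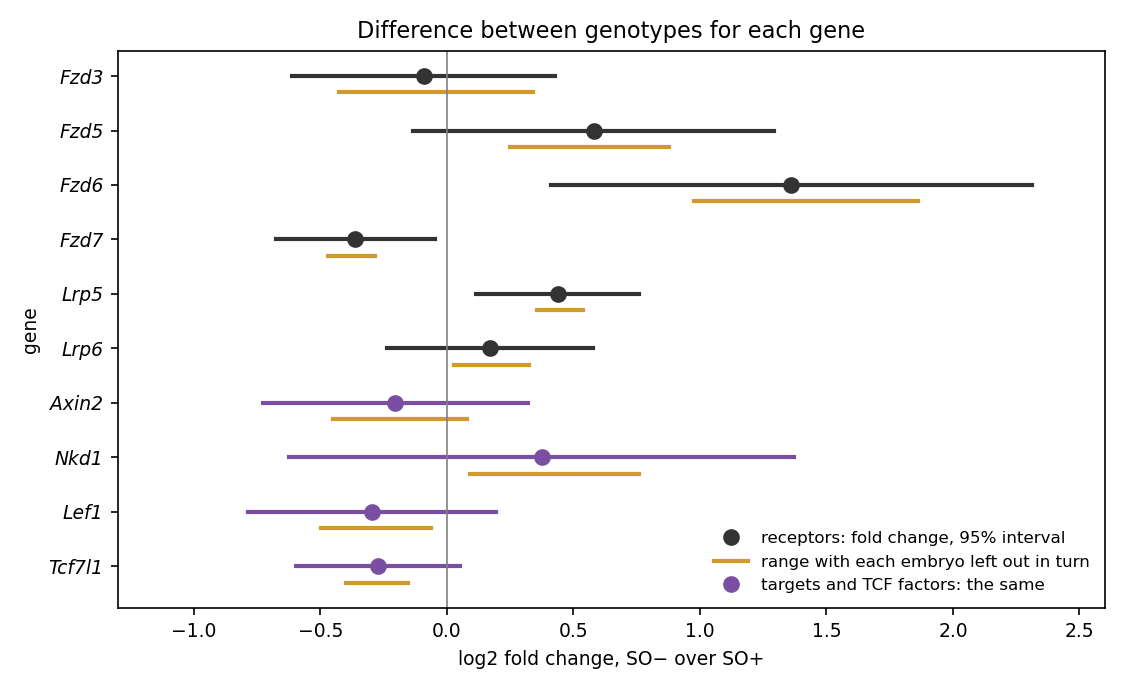
Fitted log2 fold change of SO− over SO+ for each of the 10 genes, with 95% intervals from the edgeR fit, a second line under each for the range with each embryo left out in turn, and a vertical line at 0. The intervals of Fzd6 and Lrp5 lie above 0 and that of Fzd7 below, and none of the 10 has an adjusted p under 0.05.

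Set side by side, the receptors and the targets had small and opposite medians. The 6 receptors had a median log2 difference of 0.30, with 4 positive and 2 negative, and the 4 targets one of −0.24, with 1 positive and 3 negative. Over all tested genes the median was −0.0019. Without Tcf7l1, which is known first as a TCF factor, the median of the targets was −0.20, and without SO+ embryo 2 that of the 4 targets was 0.0085. For 5 of the 10 genes (Fzd3, Lrp6, Axin2, Nkd1 and Lef1) the 2 control embryos differed from each other by more than the genotypes did on the log2 scale. The sum of the 6 receptors, in CPM per kilobase of exon, was 37.7 and 35.5 in SO+ and 39.5, 33.9 and 35.3 in SO−, with overlap. The sum of the 4 targets was 36.6 and 35.5 in SO+ and 30.6, 29.0 and 32.1 in SO−, below both controls in each mutant. Tcf7l1 makes up most of that sum, and with Axin2, Nkd1 and Lef1 alone the ratio of targets to receptors was 0.287 and 0.385 in SO+ and 0.312, 0.325 and 0.276 in SO−, where the genotypes overlapped. No test was made of these sums, since the genes were grouped with the results known.

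Per kilobase of exon, Tcf7l1 and Fzd7 were by far the most abundant of the 10. In SO+ the means were 23.8 CPM per kilobase for Tcf7l1, 21.1 for Fzd7, 6.96 for Lrp5, 5.49 for Axin2, 5.20 for Lef1, 3.64 for Fzd3, 2.49 for Lrp6, 1.56 for Fzd5, 1.55 for Nkd1 and 0.824 for Fzd6. Tcf7l1 and Fzd7 were at percentiles 79.9 and 77.9 of the tested genes, Lrp5 at 53.6 and Fzd6 at 10.1. In SO+ the neighbours in this order overlapped at Axin2 and Lef1, Lef1 and Fzd3, Fzd3 and Lrp6, and Fzd5 and Nkd1. In SO− the means were 19.5 CPM per kilobase for Tcf7l1, 16.2 for Fzd7, 9.55 for Lrp5, 4.84 for Axin2, 4.06 for Lef1, 3.31 for Fzd3, 2.77 for Lrp6, 2.26 for Fzd5, 2.17 for Fzd6 and 2.13 for Nkd1. The order was thus that of the controls except that Fzd6 and Nkd1, the lowest of the 10, changed places. Only Fzd7 over Lrp5 and Lrp5 over Axin2 were separated among neighbours in SO−.

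The mixture of Frizzleds was led by Fzd7 and Fzd2 in every embryo. Of the length-scaled signal summed over all 10 Frizzled genes of the mouse, Fzd7 took 41.7% and 43.9% in SO+ and 31.8%, 29.1% and 30.8% in SO−. Fzd2 took 29.0% and 38.0% in SO+ and 37.5%, 31.4% and 38.9% in SO−, and ranked above Fzd7 in all 3 SO− embryos but in neither control, although in SO− embryo 2 this order rests on 61 counts of Fzd2 and 70 of Fzd7. Fzd6 contributed 2.17% and 1.17% in SO+ and 3.52%, 5.47% and 3.55% in SO−. Fzd8 contributed 0.690% and 1.13% in SO+ and 1.49%, 2.84% and 2.41% in SO−. The shares of Fzd7 were lower and those of Fzd6 and Fzd8 higher in every mutant than in either control, while those of the other Frizzleds overlapped. By CPM, 14.2% of all tested genes were higher in every mutant and 15.1% lower. In SO− embryo 2 the shares of Fzd6 and Fzd8 rest on 14 and 9 counts. The total over the 10 Frizzleds was 49.3 and 49.4 CPM per kilobase in SO+ and 57.4, 47.4 and 53.6 in SO−. A gene's share moves with all the others, and the Fzd9 share of 14.8% in SO− embryo 2 rests on 18 counts.

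**Figure D3:**
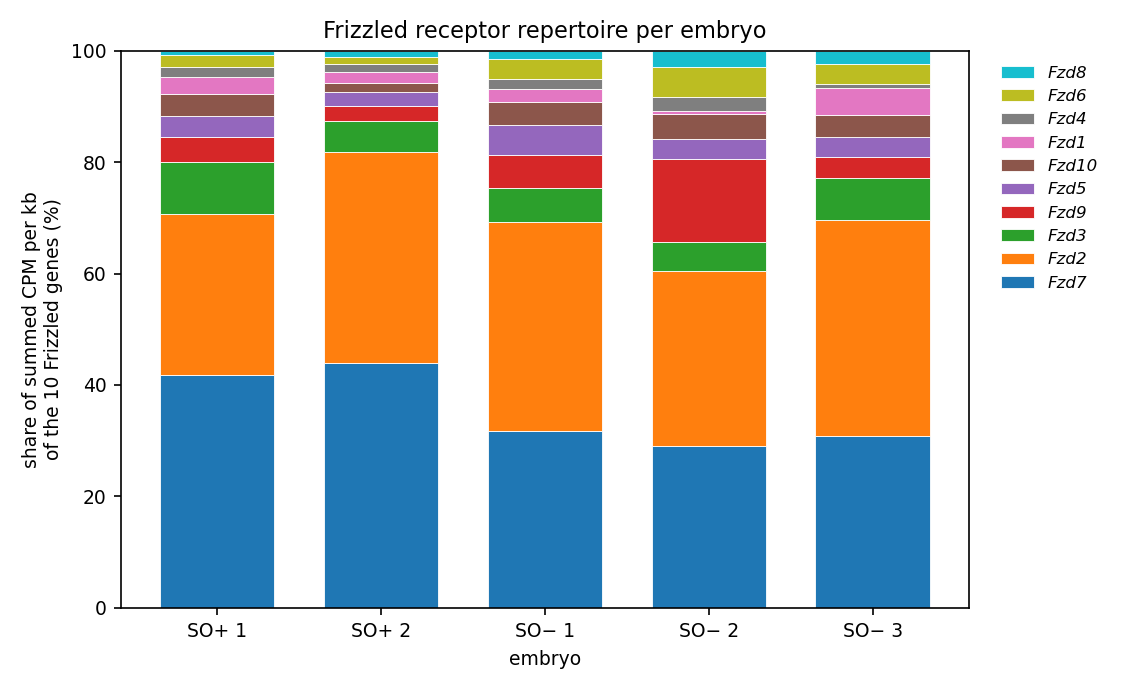
Share of each of the 10 Frizzled genes in their summed CPM per kilobase of exon, in percent, as stacked bars for the 2 SO+ and 3 SO− embryos. Fzd7 takes 41.7% and 43.9% in SO+ and 29.1% to 31.8% in SO−, and Fzd2 takes 29.0% to 38.9% across the 5 embryos.

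Of 98 other genes of the pathway, 67 were tested and 4 passed the edgeR test, 2 in each direction, beside 2.35% of all tested genes. At an unadjusted p under 0.05 there were 15, beside 13.7% of all tested genes, and 40 of the 67 had a positive log2 difference, with a median of 0.12. Among 10 tested genes of ligands and their secretion 2 passed. Wnt8a, a ligand of the posterior epiblast and early streak, was at 12.4 and 8.83 CPM in SO+ and at 1.95, 2.68 and 1.21 CPM in SO−. It fell by 2.59 on the log2 scale (SE 0.48, edgeR adjusted p = 0.0118), and the level of SO− embryo 2 equals 3 counts. Wls, the carrier that takes WNT proteins to the cell surface, was at 73.8 and 112 CPM in SO+ and at 168, 199 and 149 CPM in SO−, and rose by 0.87 (SE 0.18, edgeR adjusted p = 0.0213). Of 6 tested antagonists, Cer1, which encodes a secreted inhibitor of NODAL, BMP and WNT made in the anterior VE, rose from 78.3 and 82.8 CPM to 140, 129 and 120 CPM (log2 0.69, SE 0.13, edgeR adjusted p = 0.0126). Dkk1, an LRP5/6 antagonist also made there, was at 43.2 and 60.4 CPM in SO+ and at 85.5, 83.9 and 81.0 CPM in SO−, with an adjusted p of 0.0523 by edgeR, 0.0263 by DESeq2 and 0.187 by limma-voom. Its log2 difference was 0.69, and 0.46 without SO+ embryo 1. Of 9 further targets, Ccnd1, which encodes cyclin D1, fell from 168 and 151 CPM to 97.2, 99.1 and 99.1 CPM (log2 −0.70, SE 0.12, edgeR adjusted p = 0.00754). All 4 calls were lost without SO− embryo 1 and also without SO− embryo 2. Without SO+ embryo 1 the calls of Wnt8a, Wls and Cer1 were lost, and without SO− embryo 3 that of Wnt8a. The log2 differences with single embryos left out were −2.82 to −2.30 for Wnt8a, 0.60 to 1.20 for Wls, 0.61 to 0.74 for Cer1 and −0.77 to −0.62 for Ccnd1. By limma-voom the calls of Wnt8a (adjusted p = 0.181) and Wls (adjusted p = 0.142) were also lost.

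The other lists held no call. Of the 11 further Frizzleds and alternative receptors, all tested, 8 had a positive difference, and the lowest p-values were those of Fzd8 (log2 1.34, edgeR adjusted p = 0.244) and Fzd9 (1.08, adjusted p = 0.410, and 0.60 without SO− embryo 2). Fzd8 stood at 2.03 and 3.34 CPM in SO+ and at 5.12, 8.03 and 7.72 CPM in SO−. Of 6 tested R-spondins and genes of receptor turnover, which set how many Frizzleds stay at the cell surface, the leading pair was Rspo1 (−1.10, edgeR adjusted p = 0.161) and Rspo3 (0.92, adjusted p = 0.275, and 0.37 without SO− embryo 1). The 16 tested genes of Dishevelled and the destruction complex had a median log2 difference of −0.02, with Tnks, which marks Axin for degradation, at 0.53 (edgeR adjusted p = 0.0859) and Csnk1a1 at −0.18 (adjusted p = 0.518). The 9 tested TCF genes and cofactors had a median of 0.10, with Tle4 at 0.59 (edgeR adjusted p = 0.403) and Tcf7l2 at 0.34 (adjusted p = 0.467). Without SO+ embryo 1 these were 0.33 and 0.16, and with SO+ embryo 2 left out 0.90 and 0.52. Tcf7l2 was 0.19 without SO− embryo 2. Beside Ccnd1, the target with the next lowest p was Bambi at 0.70 (edgeR adjusted p = 0.202).

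**Figure D4:**
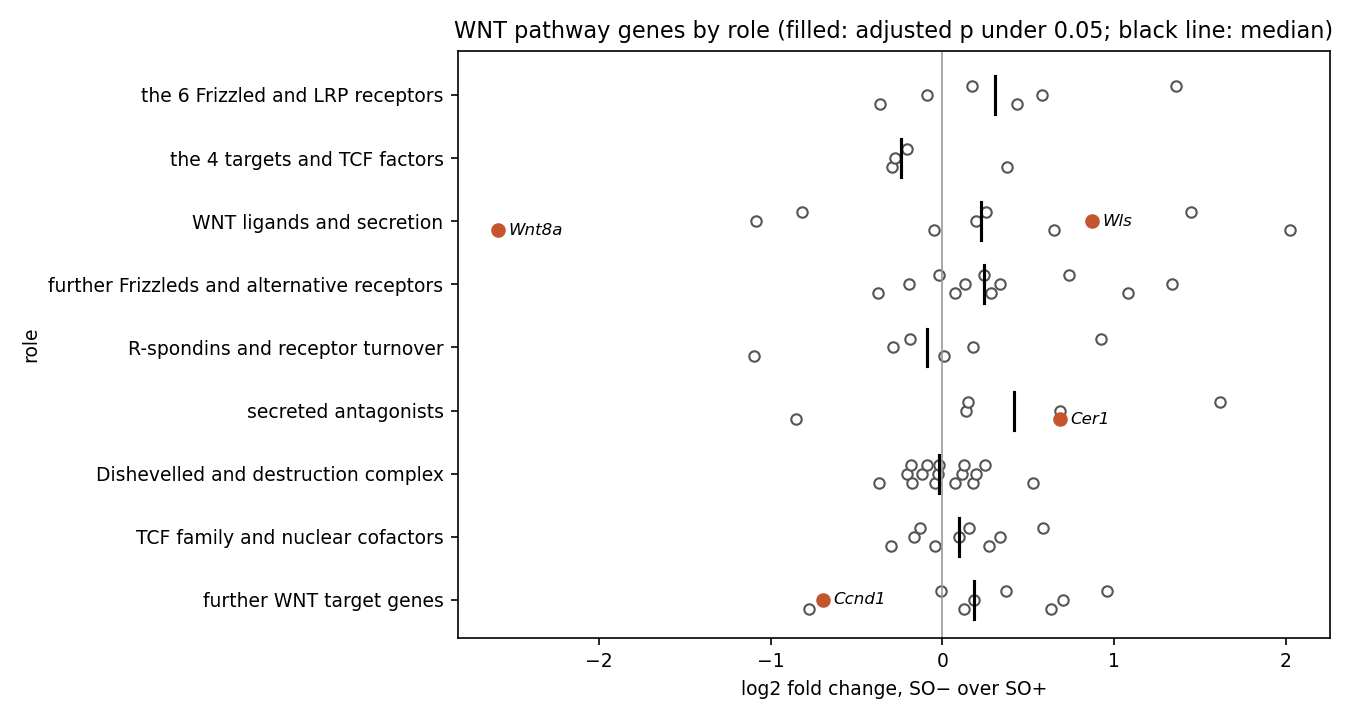
Fitted log2 fold change of SO− over SO+ for the tested genes of the WNT pathway, 1 row for each role, with the 6 receptors and the 4 targets and TCF factors in rows of their own. Filled points have an adjusted p under 0.05 and are Wnt8a, Wls, Cer1 and Ccnd1, and the row medians, drawn as black bars, lie between −0.24 and 0.42.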

How the data were processed

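RNA from 5 single embryos was amplified by SmartSeq2 and sequenced with paired ends. The authors removed adapters (cutadapt), mapped the reads on GRCm38/mm10 (STAR), counted them per gene with HTSeq-count on Ensembl 87 and deposited raw counts, with neither normalization nor molecular identifiers. Whether counting was stranded is not given in the sources used here.

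Counts were fitted for the whole table with edgeR 4.0.16 in R 4.3.3 (TMM scaling, filterByExpr, glmQLFit and glmQLFTest on genotype), with Benjamini-Hochberg adjustment over all tested genes at 0.05. SE is the size of the log2 fold change over the square root of F, and 95% intervals use the t distribution at the fit's degrees of freedom. Levels are CPM of the deposited counts after TMM scaling. CPM per kilobase uses merged exon length from GENCODE M21 on GRCm38, which also gives gene positions and matched 99.3% of IDs. Intervals for counts are exact Poisson and cover counting error only, as PCR reads are not independent molecules. The p-values rest on the spread between separate embryos. An exact permutation test of 2 against 3 embryos cannot go below 0.10, so none was used for single values.

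Alternatives were DESeq2 1.42.0, limma-voom 3.58.1, other scalings, filters and dispersion fits, thinned counts, a replicate block and leaving out each embryo. The 10 genes and all lists were chosen with earlier results of these data known. All 10 are named, and of the other pathway genes those passing the test and the 2 of lowest p in each list.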

Additional observations from a re-analysis of the deposited data

How the results depend on the processing

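The number of genes called over the whole table depended strongly on the processing: 283 by the edgeR fit, 91 by limma-voom, 929 with the replicate block, and 35 (without SO− embryo 2) to 573 (without SO+ embryo 2) with an embryo left out, where leaving out an SO+ embryo assumes that the remaining control varies like the mutants. Without SO− embryo 1 there were 46. Of the 10 genes none was called except with the replicate block, where Lrp5 was (log2 0.55, edgeR adjusted p = 0.0237). In the block fit SO− embryo 3 is the only embryo of its number, so its own block term takes it up. The genotype comparison there rests on the embryos numbered 1 and 2. Of the other pathway genes 4 were called, 2 by limma-voom (Cer1 and Ccnd1), 14 with the replicate block and 0 to 7 with an embryo left out. The cause of these shifts was not tested. The numbers 1 and 2 are shared by the genotypes, but they name different embryos. Deviations of same-numbered embryos from their group means correlated at −0.0087 and 0.122 across genes. With only 2 SO+ embryos, the deviations of each mirror those of the other, so these values cannot decide whether embryos were paired. The median log2 difference of the 4 targets ranged from −0.30 to 0.0085 and that of the 6 receptors from 0.18 to 0.38 with an embryo left out. Of 150 values of the 10 genes under alternatives 144 kept sign and side of the threshold. The sign turned for Fzd3 by limma-voom (0.0023), without SO+ embryo 1 (0.34, against a low of −0.43) and without SO− embryo 2 (0.03), and for Axin2 with the replicate block (0.038) and without SO+ embryo 2 (0.0805, against a low of −0.45). The lowest adjusted p of Fzd6 over the settings was 0.0731. A minimum of 10 counts in every embryo removed Wnt8a, Fzd8 and Rspo1. Depth limits SO− embryo 2 most, where a gene with 3 counts is at 2.68 CPM.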

Other observations

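The 2 SO+ embryos differed from each other in some genes of the posterior embryo and not in others. Axin2 was at 24.7 CPM in SO+ embryo 1 and 35.7 CPM in SO+ embryo 2, and Lef1 at 38.9 and 52.5 CPM. Sp5, a direct WNT target of the streak, was at 19.4 and 49.4 CPM, and Mesp1, a gene of nascent mesoderm, at 20.9 and 63.5 CPM. Lefty2 was at 25.6 and 92.5 CPM, Mixl1 at 159 and 282 CPM and Eomes at 209 and 253 CPM. Close in both controls were T, at 38.6 and 35.6 CPM, Wnt3, at 20.8 and 19.1 CPM, and Fgf8, at 138 and 124 CPM. Evx1, at 23.9 and 24.5 CPM, and Snai1, at 24.7 and 25.2 CPM, were also close. Wnt8a, at 12.4 and 8.83 CPM, and Nkd1, at 8.56 and 5.60 CPM, were lower in SO+ embryo 2. The SO− embryos stood at 44.6, 41.1 and 28.0 CPM for Sp5 and at 28.0, 27.7 and 27.2 CPM for Mesp1, all between the controls. For Lefty2 they stood at 76.2, 99.1 and 33.3 CPM and for Mixl1 at 187, 170 and 131 CPM, not all between them. Apart from Axin2, Lef1, Nkd1 and Wnt8a the genes of this paragraph were chosen after their values were seen, and the order of the controls was not tested.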
